A study of Mus musculus with 33 samples.

Results

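The comparison described here set carcinomas of PTHrP knockout (KO) mice at 12 weeks of age against tumor-free mammary glands of KO mice of the same age. Its members were chosen by sample label, namely 3 KO tumors and 2 KO glands, 5 of the 33 libraries of the series, which the labels number as biological replicates. Tumor mice were PyMT-MMTV; Pthrp flox/flox; Cre+ on an FVB background with the mTmG reporter, and the glands came from mice with the same Pthrp flox/flox; Cre+ genotype and reporter that lacked PyMT, so the Pthrp deletion was shared by both groups and was not what was compared. PyMT is a viral oncogene under the mouse mammary tumor virus (MMTV) promoter, which is active in the mammary epithelium, and Cre came from an MMTV-Cre line, so both act mainly in epithelial cells. Tissue was digested, the cells were kept 48 h in culture, and cells that Cre had switched from tomato to green fluorescence (GFP+) were sorted before rRNA-depleted total RNA was sequenced. The question of the comparison is which genes separate an established carcinoma from the gland where Pthrp is deleted in the epithelium of both. Coordinates are in GRCm38.

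The mammary epithelium has an inner luminal and an outer basal layer. Luminal cells are either hormone-sensing, with estrogen and progesterone receptors, or belong to a progenitor and alveolar line that makes milk. Basal cells are largely myoepithelial, contract under oxytocin to eject milk and lay down the basement membrane, and are lost as ducts turn into invasive carcinoma. PTHrP, encoded by Pthlh, is a secreted peptide that acts through the receptor encoded by Pth1r.

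Counted reads ranged from 28683384 to 70950505 in the 5 libraries. Libraries of the same group differed from each other. The share of reads on rRNA genes was 18.8% in gland 2 and at most 0.952% in the other 4 libraries, and rRNA and the rows linked to it were left out of the biology below. The share of genes of at least 5 CPM that differed over 2-fold was 12.4% between the 2 glands, 6.46% and 7.31% between tumor 1 and the other 2 tumors, and 2.02% between tumors 2 and 3. The rows for the PyMT transgene held 4.74 CPM in tumor 1, 68.8 CPM in tumor 2 and 34.5 CPM in tumor 3, and 0 reads in both glands, which the study describes as tumor-free. CPM, the usual scaling of counts to a common library size, were taken after TMM normalization, which corrects for libraries dominated by few genes. The EGFP row of the reporter held 361 to 836 CPM in all 5 libraries, and gland 1 had the highest value. The sorted cells carried the keratins of epithelium. The tdTomato row was at 208 CPM in gland 1 and 64.4 CPM in gland 2. It was at 80.9, 77.9 and 143 CPM in tumors 1, 2 and 3. The libraries stood in the same order for this row as for the EGFP row. The paper proposes that cells with both reporters may hold leftover tomato protein or may be recombined in only part of their reporter alleles. The tdTomato row therefore need not mark cells that Cre did not switch, and its part in the results was not tested. Markers of other cell types are given near the end.

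Of 36527 genes tested, 2233 (6.11%) were differentially expressed genes (DEGs), with a fold change over 1.5 and an adjusted p under 0.1 in edgeR's quasi-likelihood test. In KO tumors 1166 (3.19%) were higher and 1067 (2.92%) were lower, and 1034 and 971 of them were protein-coding. In a further check of the single libraries, 243 of the DEGs had tumor and gland values that overlapped. Of those named below, they included Bmf, Cxcl14, Eng, Etv1, Hey1, Hoxc4, Kit, Oxtr, Plin4, Pparg, Rb1, Shmt2 and Trpv6. The test borrowed the spread of all 33 libraries. Fitted on the 5 libraries alone, edgeR called 0 genes at the same thresholds, with 3056 at an unadjusted p under 0.05, while DESeq2 on all libraries called 2904. Without gland 1 there were 2195 DEGs, of which 1110 were among the 2233, and without gland 2 there were 1726, of which 1288 were. Of the 13655 genes with a group mean of at least 1 CPM, 7.43% were higher and 6.44% were lower, and the counts of the gene lists below stand beside these shares as description only. Some genes stand in more than 1 list. In 39 of the 44 gene lists the number of higher or of lower genes moved by over 1.5 times when 1 of the 5 libraries was left out.

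Basal and myoepithelial genes fell in KO tumors. Of 15 markers 13 were lower, none was higher, and the median log2 fold change was -3.18, beside 0.05 over all genes tested. Krt5, a keratin of the basal layer (ENSMUSG00000061527, chr15:101707070-101712898), was at 84.2, 165 and 164 CPM in the 3 tumors and at 2423 and 777 CPM in the 2 glands. Every tumor lay below both glands, and the fitted level was 11.6-fold lower, a call kept without any 1 of the 5 libraries (log2 fold change -3.54, SE 0.71, adjusted p = 0.00358 in edgeR). Krt14, its partner in basal filaments, was at 591, 1017 and 579 CPM in tumors and 2003 and 1369 CPM in glands, a smaller difference (log2 -1.21, SE 0.35, adjusted p = 0.0455 in edgeR). Trp63, the transcription factor of basal identity, did not pass. It was at 28.3, 53.9 and 50.7 CPM in tumors and at 180 and 40.0 CPM in glands, and gland 2 lay within the range of the tumors. In bulk RNA, fewer cells of a type and less RNA per cell cannot be told apart.

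**Figure D1:**
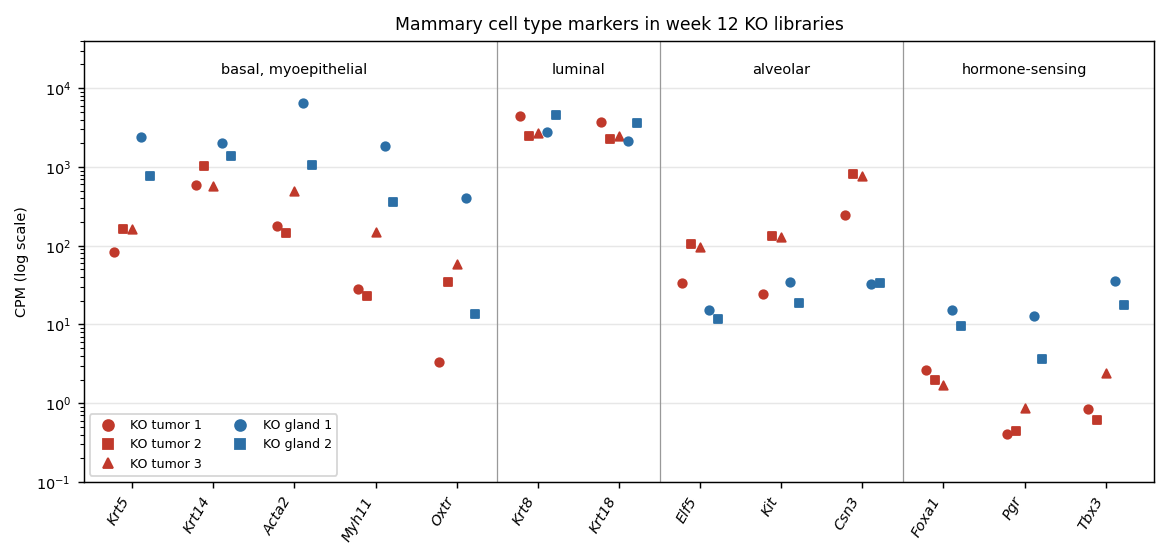
Expression (CPM, log scale) of 13 mammary cell type markers in the 3 KO tumors (red) and 2 KO glands (blue) of week 12, with 1 symbol per library. Basal and hormone-sensing genes sit higher in glands except Oxtr, whose gland 2 (13.6 CPM) lies among the tumors, Krt8 and Krt18 overlap, and alveolar genes sit higher in tumors except Kit, whose tumor 1 (24.6 CPM) lies between the glands.

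Among genes of smooth muscle contraction, 18 of 24 fell, none rose, and all 24 had a log2 fold change below 0 (median -2.63). Acta2, the smooth muscle actin (chr19:34241090-34255590), was at 176, 147 and 497 CPM in tumors and at 6387 and 1072 CPM in glands. Tagln, an actin-binding protein, was at 79.7, 44.4 and 211 CPM in tumors and 3193 and 618 CPM in glands. Myh11, the smooth muscle myosin heavy chain, was at 28.1, 22.7 and 149 CPM and at 1828 and 362 CPM. For each of these genes gland 1 was several times as high as gland 2, yet the highest tumor, always tumor 3, stayed under the lower gland. Actg2, the enteric smooth muscle actin, had the largest fall of the list (log2 -4.55, SE 0.89, adjusted p = 0.00305 in edgeR). Kcnmb1, a subunit of the calcium-activated potassium channel of smooth muscle, fell by 4.18 on the log2 scale (SE 0.84, adjusted p = 0.00358 in edgeR). Oxtr, the oxytocin receptor, was at 3.35, 34.8 and 58.5 CPM in tumors but at 401 CPM in gland 1 and 13.6 CPM in gland 2, so its call rests on gland 1, and the log2 fold change was 1.24 without it. Without gland 1 the list had 3 calls and 20 of 24 genes below 0, with a median of -0.73, and the marker list had 4 calls, 13 of 15 genes below 0 and a median of -1.76. Without gland 2 these were 19 and 15 calls.

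Serum response factor, encoded by Srf, drives many of these genes through the CArG box, so promoters that hold this motif are shown for 2 of the genes that fell. Srf itself was at 90.8, 66.0 and 88.2 CPM in tumors and 153 and 106 CPM in glands (log2 -0.67, SE 0.19, adjusted p = 0.0399 in edgeR). Myl9, the regulatory light chain of smooth muscle myosin, was at 30.2, 35.0 and 90.2 CPM and at 795 and 133 CPM (log2 -3.16, SE 0.69, adjusted p = 0.00704 in edgeR). In the 250 bases before the start of the gene, searched on both strands, 3 of the 19 genes of the list with a RefSeq promoter (Myl9, Trpc6 and Srf) hold a CArG box, and 1.62% of the 27025 genes with a promoter do. The sequences are from RefSeq (GRCm38.p6), Myl9 from chr2:156775214-156775463 on the plus strand and Srf from chr17:46556163-46556412 on the minus strand, written 5′ to 3′ with CArG boxes in capitals. A match is a description of the letters and was not tested as a binding site.
Myl9: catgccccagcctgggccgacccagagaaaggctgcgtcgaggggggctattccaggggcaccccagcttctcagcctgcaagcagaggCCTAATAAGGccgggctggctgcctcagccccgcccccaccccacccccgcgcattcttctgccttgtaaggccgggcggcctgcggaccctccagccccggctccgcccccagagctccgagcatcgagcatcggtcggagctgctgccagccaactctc
Srf: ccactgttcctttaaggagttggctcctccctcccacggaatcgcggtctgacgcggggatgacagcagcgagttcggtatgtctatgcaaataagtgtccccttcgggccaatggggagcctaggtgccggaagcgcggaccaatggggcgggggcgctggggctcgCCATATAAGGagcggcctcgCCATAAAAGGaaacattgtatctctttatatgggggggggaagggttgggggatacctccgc

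Genes of basal keratins and the basement membrane fell as well. Of 22 genes, among them Krt5, Krt14, Col17a1 and Lama3 of the basal marker list, 14 fell, none rose, and all 22 lay below 0 (median -1.74). Lama3, a chain of the laminin that anchors basal cells, was at 199, 111 and 154 CPM in tumors and 1265 and 527 CPM in glands (log2 -2.53, SE 0.40, adjusted p = 0.000555 in edgeR). Col17a1, a hemidesmosomal collagen, fell by 2.98 on the log2 scale (SE 0.57, adjusted p = 0.00248), and Col4a1, a collagen of the basement membrane itself, by 2.58 (SE 0.47, adjusted p = 0.00187). Of 24 fibrillar collagen and other matrix genes, 4 were lower and none higher, with a median log2 fold change of -0.72. Postn, encoding periostin, was at 71.4, 284 and 413 CPM in tumors and at 3583 and 429 CPM in glands, so that gland 2 lay just above the highest tumor. Sparc fell by 2.65 on the log2 scale (SE 0.63, adjusted p = 0.0131). Without gland 1 the basement membrane list had 6 calls with all 22 genes below 0, and no fibrillar collagen or matrix gene was called lower in edgeR, 16 of 24 lying above 0. Without tumor 2 the matrix list had 2 lower genes, and DESeq2 called 2 of its genes higher.

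The luminal keratins Krt8 and Krt18 did not separate the groups. Krt8 was at 4393, 2500 and 2658 CPM in tumors and at 2742 and 4505 CPM in glands (log2 -0.19, SE 0.29, adjusted p = 0.803 in edgeR), and Krt18 was at 3769, 2279 and 2449 CPM and at 2135 and 3589 CPM. Values of the groups overlapped for both. Of 15 luminal epithelial markers, Cldn3, a tight junction protein (log2 0.83), Ehf, an epithelial transcription factor (1.37), and Prom1 (1.26) rose, and Krt19 fell, from 328 and 478 CPM in glands to 218, 85.3 and 82.2 CPM in tumors. Krt19 lost its call without gland 2 (log2 -1.30).

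Hormone-sensing luminal markers fell in part, with 5 of 14 lower and 1 higher. The higher one was Prom1, the most abundant of the list, which also stands in the luminal epithelial list. The summed level of the list was 259, 322 and 364 CPM in tumors and 276 and 250 CPM in glands, which overlapped. Tbx3, a T-box factor of mammary development, was at 0.846, 0.612 and 2.44 CPM in tumors and at 36.2 and 17.4 CPM in glands (log2 -4.34, SE 0.65, adjusted p = 0.000383 in edgeR). Foxa1, the pioneer factor of the estrogen receptor, was at 2.63, 1.99 and 1.71 CPM in tumors and 15.5 and 9.46 CPM in glands. Pgr, the progesterone receptor, was at 0.408, 0.443 and 0.874 CPM and at 12.7 and 3.69 CPM. Tumors lay below both glands for all 3 genes. Wnt4, a paracrine signal induced by progesterone, fell by 2.37 on the log2 scale (SE 0.38, adjusted p = 0.000674), and Fgl2, a fibrinogen-like protein, fell by 3.01. Esr1, the estrogen receptor itself, did not pass, with 2.52, 12.2 and 3.84 CPM in tumors and 7.06 and 3.94 CPM in glands (log2 0.16, SE 0.55). Areg, a growth factor downstream of that receptor, did not pass either (log2 -1.35, SE 0.74, adjusted p = 0.41). The list had 4 lower genes without gland 1 and 5 without gland 2.

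Genes of luminal progenitors and alveolar cells rose, with 11 of 14 higher, 1 lower and a median log2 fold change of 1.92. Elf5, the transcription factor of the alveolar line, was at 33.6, 105 and 96.8 CPM in tumors and 15.3 and 11.8 CPM in glands (log2 2.53, SE 0.46, adjusted p = 0.0019 in edgeR). Csn3, encoding kappa-casein (chr5:87925579-87932665), was at 248, 824 and 771 CPM in tumors and at 32.7 and 33.7 CPM in glands (log2 4.21, SE 0.55, adjusted p = 0.000139). Ltf, the iron-binding milk protein lactoferrin, was at 44.2, 671 and 720 CPM and at 39.9 and 15.5 CPM. Tumor 1 lay far below the other tumors for Ltf, only just above gland 1, and within the glands for Kit (24.6 CPM beside 34.3 and 18.9 CPM). The summed level of the list was 3308 CPM in tumor 1, 8729 CPM in tumor 2, 8984 CPM in tumor 3, 1765 CPM in gland 1 and 972 CPM in gland 2. PyMT transgene reads were lowest in the same tumor, and the part of this in the result was not tested. Rspo1, a Wnt agonist of luminal cells, was the gene that fell (log2 -2.46, SE 0.59, adjusted p = 0.0133). It lost its call without gland 2 (log2 -1.75), and the list had 2 lower genes without tumor 1. There were 11 calls of higher genes without gland 1 and 7 without gland 2.

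Milk protein and secretion genes rose in part, with 9 of 16 higher, none lower, and all 16 above 0. Lalba, which encodes alpha-lactalbumin, the milk protein needed for lactose synthesis, had 0 reads in both glands and 2.36, 26.1 and 37.5 CPM in tumors, at least 191-fold higher against 3 reads per library. Wap, whey acidic protein, had 0 reads in both glands and 0.0583, 7.94 and 18.2 CPM in tumors, at least 75.6-fold higher, with tumor 1 near 0. Csn2, beta-casein, was at 2.73, 3.78 and 49.9 CPM in tumors and 0.748 and 0.443 CPM in glands, so that its mean was set by tumor 3. Btn1a1, butyrophilin, a protein of milk fat secretion, was at 45.6, 37.7 and 44.9 CPM in tumors and 14.2 and 15.8 CPM in glands (log2 1.52, SE 0.26, adjusted p = 0.0012), and Mfge8, a protein of the milk fat globule, rose by 1.77 on the log2 scale. Csn1s1, the alpha-casein, was at 27.0, 22.7 and 111 CPM in tumors and at 17.0 CPM in each gland and did not pass (log2 1.66, SE 0.89, adjusted p = 0.39). The calls for Wap and Csn2 are the least firm. Csn2 lost its call without either gland, without tumor 3 and with the KO libraries alone, and Wap in the same settings. The list had 6 higher genes without gland 1 and 4 without gland 2.

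Prolactin switches on casein genes through STAT5, whose core motif is TTCNNNGAA, and the promoters of the 2 caseins that hold it are shown. In the 250 bases before the start, on both strands, 3 of 11 genes of the milk list with a RefSeq promoter hold it (Csn1s1, Csn2 and Glycam1), as do 8.13% of all 27025. Csn2 is from chr5:87699426-87699675 on the minus strand and Csn1s1 from chr5:87665958-87666207 on the plus strand (RefSeq, GRCm38.p6), with the motif in capitals. The match begins 93 bases before the start in Csn2 and 100 bases before it in Csn1s1.
Csn2: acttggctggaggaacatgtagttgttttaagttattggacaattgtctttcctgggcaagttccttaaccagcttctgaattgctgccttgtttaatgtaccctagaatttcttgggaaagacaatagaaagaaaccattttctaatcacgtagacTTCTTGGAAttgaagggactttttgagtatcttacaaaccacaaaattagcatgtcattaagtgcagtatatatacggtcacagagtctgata
Csn1s1: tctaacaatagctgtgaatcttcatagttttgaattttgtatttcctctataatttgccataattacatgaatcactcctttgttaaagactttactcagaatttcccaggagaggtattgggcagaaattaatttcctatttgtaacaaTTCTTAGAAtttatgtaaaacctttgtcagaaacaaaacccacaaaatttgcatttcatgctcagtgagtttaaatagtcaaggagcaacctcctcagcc

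**Figure D2:**
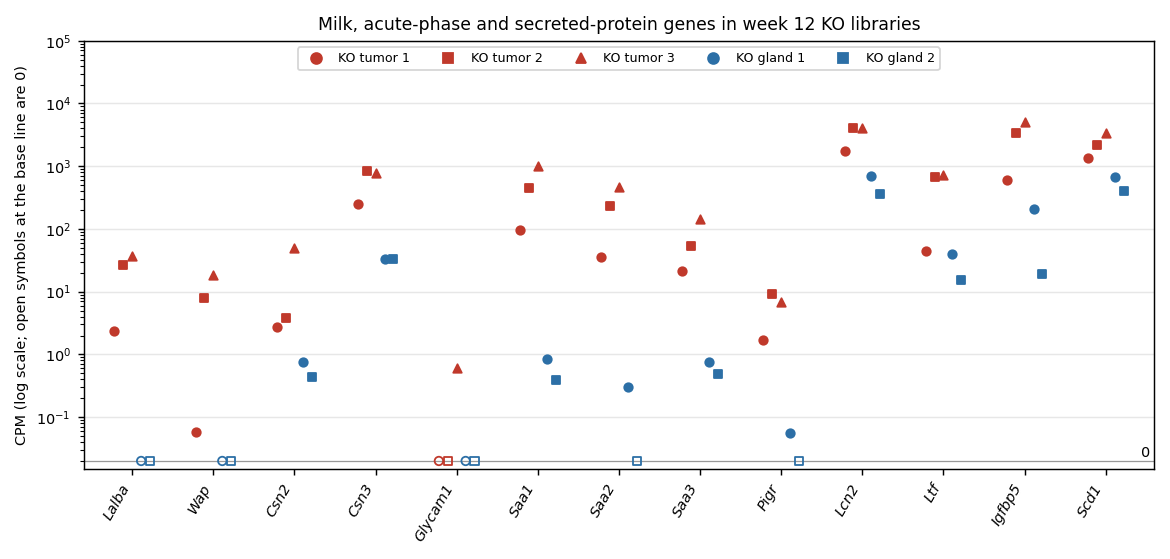
Expression (CPM, log scale) of 13 milk, acute-phase and secreted-protein genes in the 3 KO tumors (red) and 2 KO glands (blue) of week 12, with open symbols on the base line for 0 reads. Tumor 1 is the lowest of the tumors for each gene except Glycam1, which had reads only in tumor 3 (0.611 CPM), and all tumors lie above both glands for the other 12 genes.

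Antimicrobial and acute-phase genes rose for the most part. Of 20 genes 12 rose and 2 fell, and the median log2 fold change was 2.72. Saa1, serum amyloid A, was at 96.7, 441 and 999.5 CPM in tumors and at 0.859 and 0.394 CPM in glands (log2 9.58, SE 1.26, adjusted p = 0.000139 in edgeR). Saa2 was at 35.4, 230 and 460 CPM and at 0.305 CPM and 0 reads, and Saa3 at 21.3, 54.3 and 141 CPM and at 0.748 and 0.492 CPM. These genes are near-identical copies in part, so reads of Saa1 and Saa2 may have been split between them. Pigr, the receptor that carries antibodies into milk, had 1047 reads in tumors and 2 in glands, a ratio of 157 (95% counting interval 43.4 to 1300). Lcn2, lipocalin 2, was abundant in both groups, at 1745, 4072 and 4071 CPM in tumors and 708 and 365 CPM in glands (log2 2.62, SE 0.36, adjusted p = 0.000169). Cp, ceruloplasmin, rose by 2.82 on the log2 scale (SE 0.33, adjusted p = 3.93e-05). S100a8 rose (log2 3.45), whereas its partner S100a9 was under 0.3 CPM in every library. C3, Slpi and Hp did not pass. The 2 genes that fell were Defb1, a defensin (log2 -3.64), and Reg3g, which had 1 read in tumors and 7 in glands, a ratio of 0.0429 (95% counting interval 0.000951 to 0.334). The list had 10 higher and no lower genes in edgeR without gland 1, and 10 higher and 1 lower without gland 2. It had 1 lower gene without tumor 1 and 1 without tumor 2.

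Cholesterol synthesis genes fell together by a small amount. All 22 genes of the list lay below 0, with a median log2 fold change of -0.77, and 13 passed. For 19 genes every tumor lay below both glands, as for 8.91% of all genes tested. The same held for 2016 of the 13655 genes with a group mean of at least 1 CPM. Lss, lanosterol synthase, was at 88.9, 69.5 and 63.6 CPM in tumors and at 185 and 130 CPM in glands, 2.12-fold lower (log2 -1.09, SE 0.23, adjusted p = 0.00524 in edgeR). Hmgcs1, a synthase at the start of the pathway, was at 351, 195 and 189 CPM in tumors and 394 and 465 CPM in glands (log2 -0.81, SE 0.26, adjusted p = 0.0715). Srebf2, the factor that drives the pathway, did not pass (log2 -0.54, SE 0.19, adjusted p = 0.118). The directions were steadier than the calls, with 22 of 22 genes below 0 and 2 calls without gland 1, and 21 of 22 and 6 calls without gland 2. There were 5 calls without tumor 2, 5 without tumor 3, and 3 with fold changes over 2 required.

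Of the fatty acid synthesis genes, 3 of 24 rose and 1 fell, and the list had no common direction (median -0.11). Scd1, which makes monounsaturated fatty acids (ENSMUSG00000037071, chr19:44394455-44407879), was at 1327, 2190 and 3332 CPM in tumors and 672 and 407 CPM in glands, 4.23-fold higher (log2 2.08, SE 0.38, adjusted p = 0.00165 in edgeR). Its call held without any of the 5 libraries in turn. Thrsp, a lipogenic factor of the lactating gland, was at 2.39, 14.8 and 13.1 CPM in tumors and 0.499 and 0.542 CPM in glands. Mlxipl, the carbohydrate response factor, rose by 1.30 on the log2 scale, and Elovl6, an elongase, fell by 0.95. Mlxipl lost its call without gland 1, gland 2, tumor 2 or tumor 3, and Elovl6 lost its call without gland 2, without tumor 2 and without tumor 3, and the list had 2 lower genes without gland 2, 2 without tumor 1 and none in edgeR without tumor 2 or without tumor 3. In the list 13 genes had an unadjusted p under 0.05, and DESeq2 called 4 higher and 3 lower. Fasn, the fatty acid synthase, was at 894, 926 and 781 CPM in tumors and 1085 and 1271 CPM in glands and did not pass (log2 -0.44, SE 0.17, adjusted p = 0.161), with every tumor below both glands, and Acaca had a log2 fold change of 0.07. Scd2, the other abundant desaturase of the same family, did not pass (log2 -0.35, SE 0.24).

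Genes of fatty acid oxidation and PPAR signaling rose in part, with 9 of 30 higher, none lower and 24 above 0 (median 0.44). Cpt1a, which admits fatty acids to mitochondria, was at 49.9, 74.2 and 106 CPM in tumors and 42.8 and 30.4 CPM in glands (log2 1.07, SE 0.30, adjusted p = 0.0375 in edgeR). Angptl4, a PPAR target, rose by 1.62 on the log2 scale (SE 0.46). Pparg was at 0.365, 15.5 and 3.41 CPM in tumors and 0.249 and 0.394 CPM in glands, so that tumor 1 lay between the glands. The list had 4 higher genes without gland 2 and 3 without tumor 3, and 1 lower gene without gland 1, 1 without tumor 1 and 1 without tumor 3, and DESeq2 called 2 lower.

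**Figure D3:**
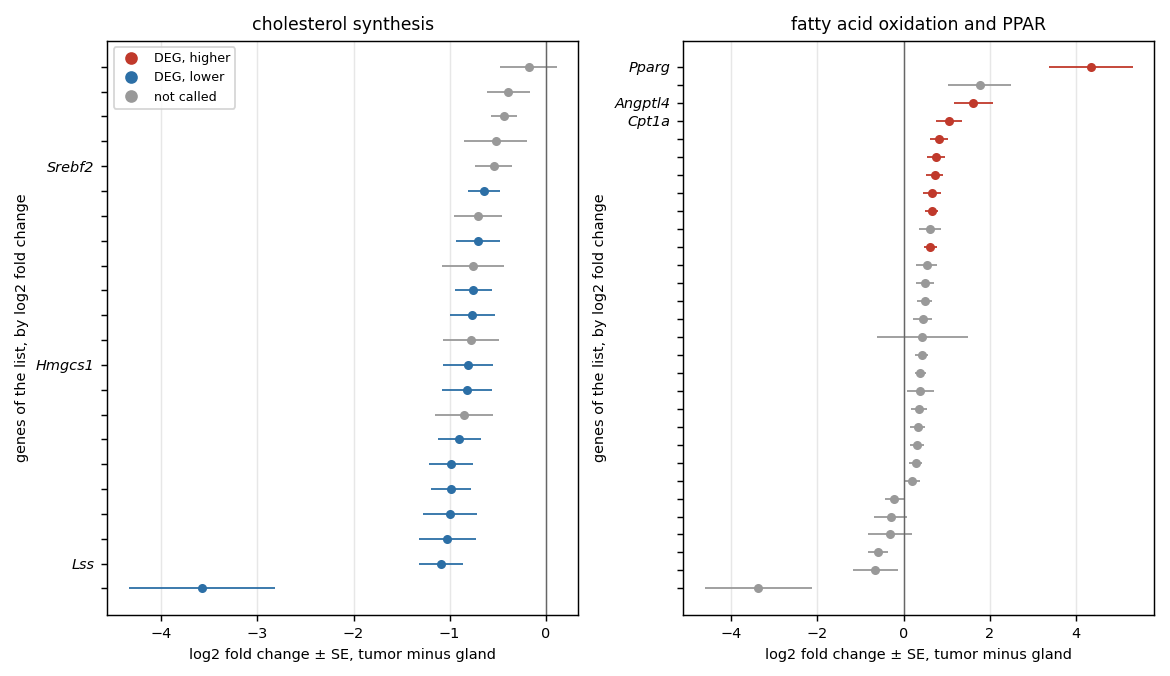
Log2 fold change of KO tumors minus KO glands at week 12, with its SE, for the 22 genes of cholesterol synthesis (left) and the 30 genes of fatty acid oxidation and PPAR signaling (right), in order of size and with names only for genes described in the text. All points of the left panel lie below 0 and 13 are DEGs, and 24 of 30 points of the right panel lie above 0 and 9 are DEGs.

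Pthlh itself (ENSMUSG00000048776, chr6:147252101-147264183) was counted in all 5 libraries, at 2.13, 1.35 and 1.80 CPM in tumors and 3.82 and 8.52 CPM in glands (log2 -1.80, SE 0.42, adjusted p = 0.0104 in edgeR). All tumors lay below both glands, but the call was lost without gland 2 (log2 -1.07, adjusted p = 0.338). Only part of the gene is flanked by loxP sites, and counts over the whole gene do not check the deletion. Pth1r was at no more than 0.222 CPM in any library. Gm50337, the long non-coding RNA next to Scd1 (ENSMUSG00000118076, chr19:44419610-44437886), was at 0.306, 0.422 and 0.985 CPM in tumors and 0.194 and 0.197 CPM in glands and did not pass (log2 1.55, SE 0.55, adjusted p = 0.114), although DESeq2 called it (adjusted p = 0.077). Msx2, a homeobox gene downstream of PTHrP in the embryonic mammary bud, fell by 2.73 on the log2 scale (SE 0.51, adjusted p = 0.00218). Of 14 genes in this list, 1 rose (Scd1) and 2 fell. There were 2 higher genes without gland 1, 3 without tumor 1 and 2 in DESeq2, and 1 lower gene without gland 2.

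In Wnt signaling 8 of 35 genes fell and 2 rose. Dkk2 and Dkk3, secreted proteins of the Dickkopf family, fell by 4.13 (SE 0.71) and 3.42 (SE 0.78) on the log2 scale, and the ligand Wnt10a by 2.87 (SE 0.48). Sfrp1, a secreted inhibitor, was at 19.1, 73.6 and 94.8 CPM in tumors, above both glands, and rose (log2 2.36, SE 0.48, adjusted p = 0.00379), and Wnt5b rose by 0.67. The list had 4 lower genes without gland 1. The call of Wnt5b was lost without gland 1, without tumor 2 and without tumor 3, and the list had 1 higher gene without tumor 2 and 1 without tumor 3. Axin2, a feedback target of the canonical pathway, was at 3.31, 4.88 and 6.09 CPM against 6.23 and 2.91 CPM and did not pass. In TGF-beta and BMP signaling 4 of 29 genes rose and 4 fell. Tgfb3, a ligand, was at 198, 399 and 469 CPM in tumors and 141 and 64.2 CPM in glands, while Bmp7, another ligand of the family, was at 1.75, 2.96 and 6.41 CPM and at 60.2 and 15.1 CPM. Ltbp2 and Tgfb2 rose by 1.40 and 1.02. Fstl1, Id4 and Bmpr1b, a type I receptor, fell by 3.17, 2.43 and 2.08. There were 7 higher and 2 lower genes without gland 1 and 2 higher genes without gland 2.

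In the IGF axis 3 of 17 genes rose and 3 fell. Igfbp5, an IGF-binding protein of the involuting gland, was at 606, 3422 and 5134 CPM in tumors and at 205 and 18.9 CPM in glands (log2 4.77, SE 1.01, adjusted p = 0.00532 in edgeR), and the glands themselves lay far apart. Igf1r, the receptor, was at 64.3, 73.2 and 73.8 CPM in tumors and 138 and 102 CPM in glands, and Irs2 fell by 0.73. Without gland 1 no gene of this list was called lower in edgeR, although the tumors lay below gland 2 as well for Igf1r, Irs2 and Igfbp6, the 3 that fell. Of 18 ErbB genes, Erbb3 (log2 0.67) and Nrg2 (2.84) rose and Nrg1, a ligand of Erbb3, fell, with 15.8, 9.82 and 9.49 CPM in tumors and 47.3 and 52.0 CPM in glands. No ErbB gene was called higher in edgeR without gland 1 or without gland 2, and 1 was without tumor 2, without tumor 3 and with the size factors of DESeq2. There were 2 lower ErbB genes without gland 1 and 2 without tumor 1. In Notch signaling 2 of 18 rose (Hey1 and Notch4) and 3 fell. Nrarp, a feedback inhibitor, fell by 1.52 (SE 0.31), and the ligands Jag1 and Jag2 by 1.17 and 1.41, and the list had 1 lower gene without gland 1 and 1 without tumor 3. Notch4 lost its call without gland 1, and Hey1 without gland 2, without tumor 2 and without tumor 3. Of 18 genes of ERK feedback and output, Etv1 and Spry1 rose and Fosl1 fell, with no gene called in edgeR without tumor 2 or without tumor 3. Fosl1 and Etv1 lost their calls without gland 2 as well and Spry1 without gland 1, and the list had 2 lower genes without tumor 1.

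Genes of cell division showed no call in mitosis and 1 in replication. None of 32 G2 and mitosis genes passed in edgeR, 0 had an unadjusted p under 0.05 and DESeq2 called 0, with a median log2 fold change of -0.26, and Pold1 was the one of 32 DNA replication genes that did (log2 -0.67, SE 0.22, adjusted p = 0.0768). Of these replication genes 31 lay below 0 (median -0.62), 12 had an unadjusted p under 0.05 and DESeq2 called 5 lower. Pold1 lost its call without gland 2 (log2 -0.18), without tumor 2 and without tumor 3, and no replication gene was called in edgeR in these settings. The glands differed. Mki67, the proliferation marker, was at 303, 213 and 161 CPM in tumors, 139 CPM in gland 1 and 526 CPM in gland 2, and Mcm2, of the replicative helicase, was at 104, 58.3 and 50.8 CPM, 80.1 CPM and 180 CPM. The direction turned with the gland used. All 32 mitosis genes were above 0 without gland 2 (median 0.63), and 31 of 32 were below 0 without gland 1 (median -0.78), with 11 calls of lower replication genes then and 9 without tumor 1. Of 18 D cyclin, inhibitor and kinase genes, Ccnd2 was at 2.65, 8.36 and 4.41 CPM in tumors and 29.6 and 27.1 CPM in glands (log2 -2.47, SE 0.51, adjusted p = 0.00433), Cdkn1c, a CDK inhibitor, rose by 2.36 and Rb1 by 1.74. Rb1 was at 39.8, 121 and 139 CPM in tumors and 41.8 and 18.1 CPM in glands, so tumor 1 lay below gland 1, and its call was lost without gland 2 (log2 1.30). The list had 1 higher gene without gland 2 and 2 lower without gland 1.

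Of 28 cell death genes 4 rose and 1 fell. Bcl2, which protects cells from apoptosis, was at 48.0, 44.5 and 54.4 CPM in tumors and 25.7 and 23.2 CPM in glands (log2 1.00, SE 0.19, adjusted p = 0.00192 in edgeR). Fas, a death receptor, and Bbc3 and Bmf, which promote apoptosis, rose as well, by 1.08, 0.60 and 1.65, and Bok fell by 1.72. The list had 1 higher gene without gland 2, 1 without tumor 3 and 7 without tumor 2, and Bok lost its call without gland 1. Among 18 p53 targets 2 rose and 1 fell. Trp53inp1 rose by 1.19 (SE 0.21), a call kept without any 1 of the 5 libraries, and Phlda3 fell by 0.86, a call lost without gland 1 and without tumor 3. The p53 list had 1 higher gene without gland 2, without tumor 3 and in DESeq2 and with its size factors, and 2 lower genes without gland 2, without tumor 1 and in DESeq2. In DNA repair 1 of 30 genes fell (Ung, log2 -0.95), which lost its call without gland 2 (log2 -0.20) and without tumor 3. There were 1 higher and 2 lower repair genes without gland 1, and 1 higher and 2 lower without tumor 1.

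None of 30 interferon-stimulated genes passed in edgeR, with 6 at an unadjusted p under 0.05 and 4 higher in DESeq2, and 29 lay above 0 (median 0.85). Ifit2 had the smallest p, with 17.1, 12.9 and 12.0 CPM in tumors and 4.79 and 7.73 CPM in glands (log2 1.17, SE 0.41, adjusted p = 0.112 in edgeR). At week 10 the median was -0.27 in KO mice, with no gene called, and -1.43 in WT mice, with 6 genes lower. Of 30 chemokines and cytokines 2 rose and 5 fell. Ccl20 was at 11.1, 3.15 and 3.69 CPM in tumors and 0.222 and 0.246 CPM in glands (log2 4.68, SE 0.64, adjusted p = 0.000169), and Tslp rose by 3.82. Cxcl12, the ligand of Cxcr4, was at 9.61, 7.77 and 14.4 CPM in tumors and 112 and 30.7 CPM in glands, and Il33, Cxcl15 and Il11 fell by 3.26, 4.24 and 1.90. The fifth, Cxcl14, fell by 1.73. Without gland 1 no gene of this list was called lower in edgeR, although every tumor lay below gland 2 as well for Cxcl12, Il33, Cxcl15 and Il11. There were 3 lower genes without tumor 2, and 1 higher gene without gland 2 and 1 without tumor 1. Of 20 MHC and antigen presentation genes Ciita rose (log2 2.40), at under 1 CPM in all libraries, and it lost its call without gland 1, without tumor 2 and without tumor 3.

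Of 25 glycolysis and hypoxia genes 5 rose and 1 fell. Pfkl, the liver-type phosphofructokinase, was at 221, 321 and 348 CPM in tumors and 116 and 117 CPM in glands (log2 1.35, SE 0.24, adjusted p = 0.00135 in edgeR). Car9, a hypoxia target, was at 17.0, 23.9 and 11.7 CPM and at 2.16 and 6.99 CPM, and the glucose transporter Slc2a1 fell by 0.69. The list had 2 higher genes without gland 2, 3 without tumor 2, 3 without tumor 3 and 8 without tumor 1. Slc2a1 lost its call without gland 1 (log2 -0.37) and without tumor 2. Nuclear genes of the respiratory chain hardly moved, with 0 of 30 called in edgeR and in DESeq2, 1 at an unadjusted p under 0.05, and all between -0.30 and 0.11 on the log2 scale. In the axon guidance list 7 of 32 fell, Slit3 by 3.43 and Slit2 by 1.89, and Ntn1, netrin 1, rose from 130 and 175 CPM in glands to 372, 466 and 399 CPM (log2 1.44, SE 0.20, adjusted p = 0.000169), and 4 genes were lower without gland 1. Of 20 imprinted growth genes 4 rose and 4 fell. Ndn fell by 3.85, Meg3 by 2.59 and Rian by 2.93, and Peg10 rose by 4.82 and Grb10 by 1.69, and 2 genes were lower without gland 1. In matrix proteases 2 of 23 rose and 3 fell, with Mmp7 at 0 reads in both glands and under 1 CPM in tumors. No protease gene was called lower in edgeR without tumor 2, and none higher without gland 1. There was 1 higher gene without gland 2, 1 without tumor 2 and 1 without tumor 3, and there was 1 lower without gland 1 and 1 without tumor 3, while 5 were lower without tumor 1, 5 with the size factors of DESeq2 and 7 in DESeq2. Snai2, an epithelial-mesenchymal transition factor that basal cells express, fell by 2.13 (SE 0.44). Its list of 23 had 1 gene higher and 1 lower. Without gland 1 the call of Snai2 was lost (log2 -1.14) and no gene of the list was called in edgeR, and there were 3 higher genes without gland 2 and 2 lower without tumor 1. The stress list of 22 genes had 3 lower (Cth, Shmt2 and Aldh18a1) and none higher in edgeR. It had 3 higher and 2 lower genes without gland 1, 1 higher without tumor 1 and in DESeq2, 1 higher and 1 lower without tumor 2, and 1 lower without tumor 3. The Hox list of 27 had 1 lower gene (Hoxc4), 2 without gland 2, 3 without tumor 1 and in DESeq2, and none in edgeR without gland 1, without tumor 2 or without tumor 3. None of 18 immediate early genes was called in edgeR, with 2 at an unadjusted p under 0.05 2 lower in DESeq2, and 1 lower with its size factors and without gland 2. Klf4 had the smallest p of these (log2 -1.10, SE 0.38, adjusted p = 0.101).

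**Figure D4:**
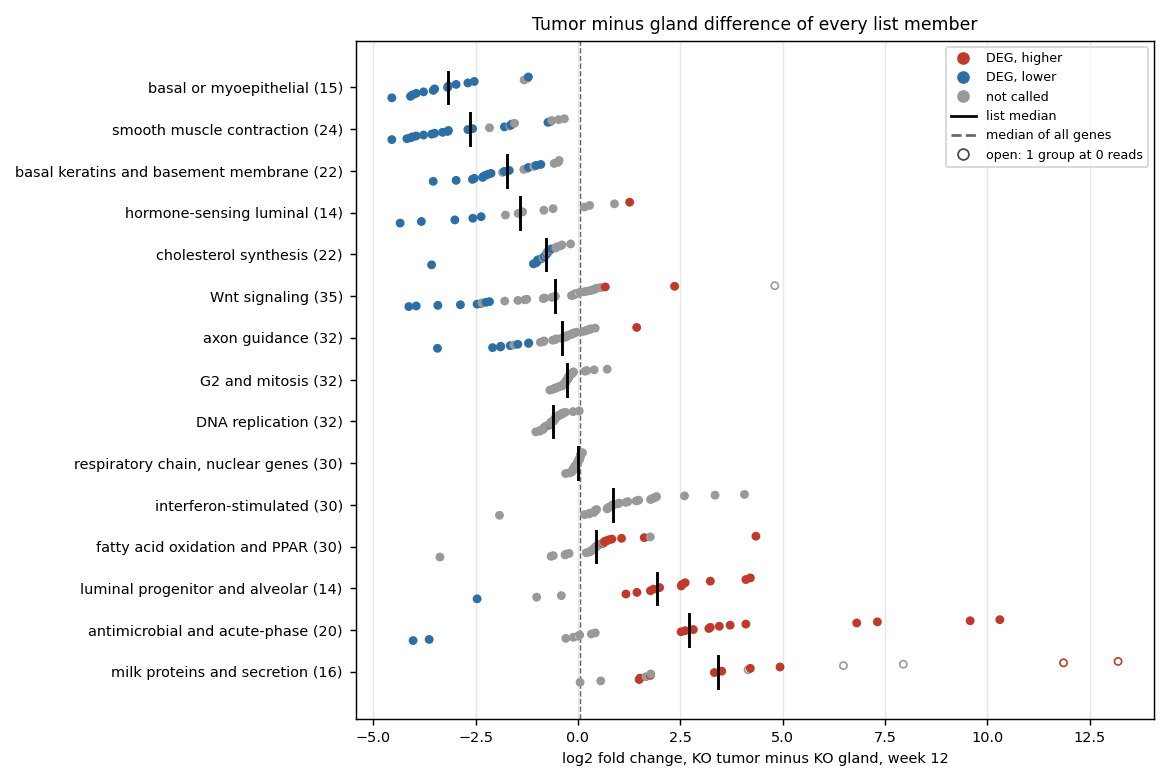
Log2 fold change of KO tumors minus KO glands at week 12 for every member of 15 gene lists, with the number tested in parentheses, DEGs in color, list medians as black bars and the median of all genes (0.05) as a dashed line. Open circles are genes with 0 reads in 1 group, whose plotted value depends on the fit and is no bound. Basal, contraction and basement membrane lists lie entirely below 0, as does cholesterol synthesis with a smaller spread, and milk proteins lie above 0.

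Markers of cell types that the sort should remove ranged from near 0 for lymphocytes to abundant for fibroblasts. The summed level over 10 lymphocyte markers was 0.219 to 1.01 CPM in tumors and 0.394 to 0.803 CPM in glands, and over 10 macrophage markers it lay in each tumor between the glands, which were at 8.23 and 12.7 CPM. Over 10 endothelial markers it was 6.63 to 10.1 CPM in tumors and 22.5 CPM in gland 1, of which Eng was 16.1 CPM, with gland 2 just below the tumors. Cd3e, Cd8a and Ms4a1 had at most 0.0554 CPM in any library, and Pecam1 and Cdh5 at most 0.471 CPM. Called members of these lists were Aif1 of 10 macrophage markers, Eng of the endothelial list, S100a8 of 9 neutrophil and mast cell markers, Plin4 and Pparg of 12 adipocyte markers, and Cspg4 and Kcnj8 of 6 pericyte markers. Aif1 lost its call without gland 2, tumor 2 or tumor 3, Eng and S100a8 without gland 1, Plin4 without gland 2, Cspg4 without gland 1 or tumor 2, and Kcnj8 without either gland, tumor 2 or tumor 3. Over the adipocyte markers the sum was 4.78, 42.0 and 23.5 CPM in tumors and 3.57 and 6.70 CPM in glands. Over the pericyte markers it was 19.3, 39.9 and 43.1 CPM and 73.6 and 33.4 CPM. The neutrophil and mast cell sum was 38.1 to 112 CPM in tumors and 70.0 and 80.4 CPM in glands, most of it Mmp9 and S100a8, and Ly6g and Csf3r, which define neutrophils, were under 0.05 CPM. Adipoq and Cfd, which define fat cells, had at most 0.0277 CPM. The fibroblast sum was 4220, 1831 and 1332 CPM in tumors and 6125 and 4783 CPM in glands. Fn1 was at 4133, 1475 and 879 CPM in tumors and 2443 and 4338 CPM in glands, while Pdgfra and Col1a1, more typical of fibroblasts, were at no more than 18.7 CPM. Of 12 fibroblast markers, Thy1 and Postn fell and none rose, and both were highest in gland 1, without which no fibroblast marker was called lower in edgeR, and 1 was without tumor 2. How far cells of other types contribute was not tested.

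Of the protein-coding genes with the largest falls among those that did not overlap, Slc38a4, an amino acid transporter, was at 0.277, 0.169 and 0.0694 CPM in tumors and 11.3 and 1.48 CPM in glands (log2 -5.22, SE 0.99, adjusted p = 0.00246 in edgeR). Tph1, the enzyme that starts serotonin synthesis, was at 0.948, 0.106 and 0.486 CPM in tumors and at 11.1 and 13.1 CPM in glands, where both glands had a like level (log2 -4.51, SE 0.67, adjusted p = 0.000383). The other 6 outside the lists above were Spon2, Pcp4, Tfpi, Dchs1, Uts2b and Prkar1b, with falls of 4.28 to 4.54 on the log2 scale. Among the largest rises were Scube1, a secreted protein with EGF-like domains, at 10.9, 58.8 and 54.3 CPM in tumors and 1.30 and 0.542 CPM in glands (log2 5.41, SE 0.75, adjusted p = 0.000169), and Slc6a2, the norepinephrine transporter, at 12.9, 14.0 and 28.5 CPM and at 0.859 and 0.0985 CPM. Hephl1, a copper-dependent ferroxidase, and Lrg1, a secreted glycoprotein, rose by 5.71 and 5.70.

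Long non-coding RNAs numbered 153 DEGs of 7042 tested, 97 higher and 56 lower in KO tumors, which is 2.17% beside 6.11% of all genes tested. Only 532 of them had a group mean of at least 1 CPM. Of these 8.46% were higher and 2.82% were lower, beside 7.43% and 6.44% of all 13655 such genes. C130071C03Rik (chr13:83721381-83884194) had 0 reads in both glands and 0.146, 9.10 and 9.01 CPM in tumors, at least 52.7-fold higher against 3 reads per library, with tumor 1 near 0. Gm45589, at 7.50, 6.63 and 9.83 CPM in tumors and 0.249 and 1.58 CPM in glands, and Gm10863, at 3.98, 4.81 and 7.77 CPM and at 1.36 and 1.58 CPM, rose in all 3 tumors to a like degree. Carmn, a non-coding RNA of smooth muscle cells, fell from 15.9 and 5.07 CPM in glands to 2.09, 2.24 and 3.16 CPM in tumors (log2 -2.08, SE 0.49, adjusted p = 0.0116). C130021I20Rik and AW112010 fell by 3.43 and 3.26.

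The DEGs named here did not all keep their calls when 1 library was left out. Of 198 DEGs chosen by the rule for named genes, 110 kept the call without gland 1, 143 without gland 2, 184 without tumor 1, 155 without tumor 2 and 152 without tumor 3. Among those of the 198 that stand in the text, the call was lost without gland 1 for Acta2, Aldh18a1, Bok, Car9, Carmn, Ciita, Cldn3, Col17a1, Col4a1, Csn2, Cspg4, Cth, Cxcl12, Cxcl15, Dchs1, Defb1, Dkk3, Dusp10, Eng, Erbb3, Fstl1, Gm45589, Hoxc4, Id4, Igf1r, Igfbp6, Il11, Il33, Irs2, Jag1, Jag2, Kcnj8, Krt14, Lss, Mlxipl, Mmp7, Myh11, Myl9, Notch4, Nrg2, Oxtr, Peg10, Pgr, Phlda3, Postn, Reg3g, Rian, S100a8, Saa3, Slc2a1, Slc38a4, Slit2, Slit3, Snai2, Sparc, Spry1, Tfpi, Thy1, Tslp, Uts2b, Wap and Wnt5b. Without gland 2 it was lost for Aif1, Aldh18a1, Angptl4, Bbc3, Bmf, Bmpr1b, Cpt1a, Csn2, Elovl6, Erbb3, Etv1, Fas, Fosl1, Hey1, Jag1, Kcnj8, Kit, Krt19, Mfge8, Mlxipl, Nrg2, Peg10, Plin4, Pold1, Pthlh, Rb1, Reg3g, Rspo1, Saa3, Shmt2, Tgfb3, Tslp, Ung and Wap. Leaving out tumor 1 took the call from Hoxc4, Il33, Irs2, Jag2, Krt14, Oxtr, Reg3g and Tslp. The same held without tumor 2 for Aif1, Aldh18a1, Ciita, Cspg4, Cxcl15, Dusp10, Elovl6, Etv1, Fosl1, Hey1, Hoxc4, Il33, Jag1, Kcnj8, Kit, Mlxipl, Nrg2, Oxtr, Pold1, Postn, Reg3g, Shmt2, Slc2a1, Spry1 and Wnt5b, and without tumor 3 for Aif1, Angptl4, Bbc3, Bmf, Ciita, Cpt1a, Csn2, Cth, Elovl6, Erbb3, Etv1, Fas, Fosl1, Hey1, Hoxc4, Jag1, Jag2, Kcnj8, Kit, Krt14, Mlxipl, Peg10, Phlda3, Pold1, Shmt2, Spry1, Ung, Wap and Wnt5b. A lost call does not show that a gene did not differ.

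Tumor effects at week 10 were set beside those of week 12, in KO mice and in WT mice (Pthrp wt/wt; Cre+), with 3 tumors and 2 glands each and no library in common with week 12. At week 10, 2067 genes (5.66%) were DEGs in KO and 2240 (6.13%) in WT mice. Of the 2233 DEGs of week 12, 1283 were DEGs in the same direction in KO mice at week 10, which is 57.5% of the former and 62.1% of the latter, and 1175 were in WT mice, 52.6% and 52.5%. None was called in the opposite direction in either. Basal markers had a median log2 fold change of -2.69 in KO mice at week 10 and of -2.24 in WT mice, beside -3.18 at week 12, and luminal progenitor and alveolar markers 2.19 and 2.08 beside 1.92. In cholesterol synthesis the medians were -0.65 and -0.81 beside -0.77. Not all lists had one direction. The median of interferon-stimulated genes was -0.27 and -1.43 beside 0.85, and the medians of the adipocyte and Hox lists, which include genes with 0 reads in a group, were below 0 at week 10 in both genotypes and above 0 at week 12.

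**Figure D5:**
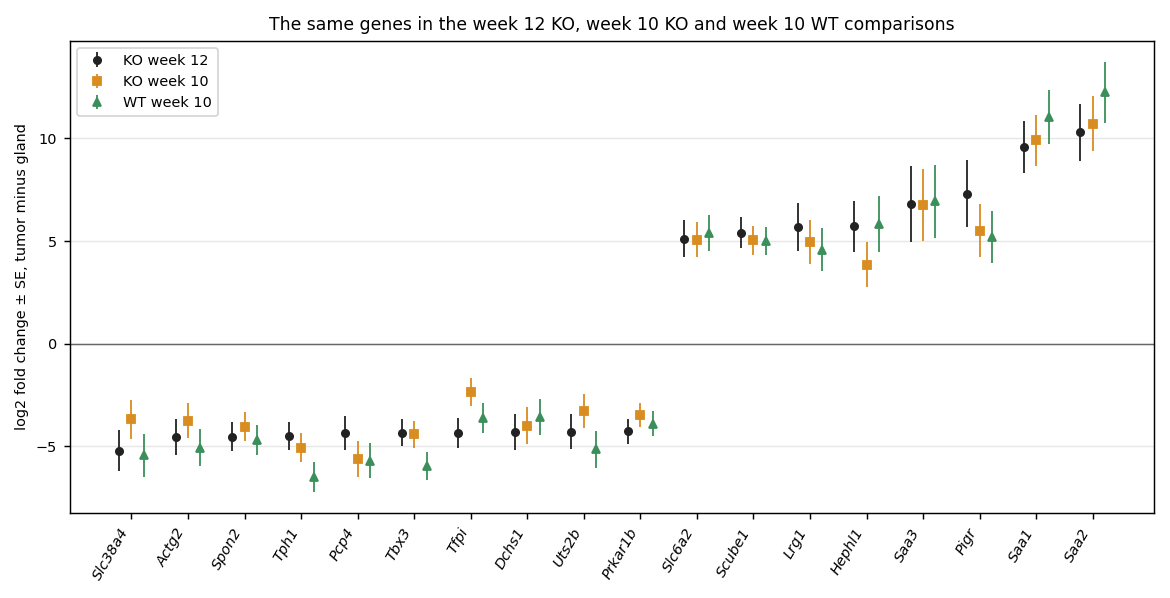
Log2 fold change of tumors minus glands, with its SE, for 18 of the 20 protein-coding genes with the largest changes in KO mice at week 12 (Lalba and Wap, with 0 reads in both glands, are left out), in KO mice at week 12 (black), KO mice at week 10 (orange) and WT mice at week 10 (green). The 18 genes were chosen on the week 12 values, and each lies on the same side of 0 in all 3 comparisons.

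The difference between the effects was tested directly. No gene (0.0%) passed for KO at week 12 against KO at week 10, with 1118 genes at an unadjusted p under 0.05 in edgeR and 3 calls in DESeq2, and no gene (0.0%) passed for KO at week 12 against WT at week 10, with 1938 genes at an unadjusted p under 0.05 and 78 calls in DESeq2. The 3 DESeq2 calls were Ccl8, Gm45315 and Gm6937, with log2 differences of 16.96, -31.24 and 24.95. For Gm45315 edgeR gave -18.4, so its size depends on the fit. At week 12 Gm45315 was at 8.61 CPM in gland 1 and 0 CPM in gland 2. The smallest p against KO week 10 belonged to Gm47258, a predicted gene that rose by 2.40 at week 12 and had a log2 fold change of -0.27 at week 10 (difference 2.67, adjusted p = 1 in edgeR). Trp53inp1, the p53 target above, was among the genes with the smallest p against WT mice, with a log2 fold change of 1.19 beside -0.19 (adjusted p = 0.232 for the difference in edgeR). Others were Ptprj, a receptor phosphatase (0.29 beside -0.61, adjusted p = 0.232), and Dusp10, a MAP kinase phosphatase (-1.12 beside -3.12, adjusted p = 0.232). Scd1 had a log2 fold change of 2.08 at week 12, 2.87 in KO and 2.49 in WT mice at week 10, and Gm50337 of 1.55, 4.08 and 2.14, with unadjusted p of 0.00867 and adjusted p of 1 for the difference of Gm50337 from KO week 10. A p that misses the threshold does not show that the effects are equal.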

How the data were processed

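Total RNA of sorted cells was depleted of rRNA and sequenced with a kit that keeps strand. The authors aligned reads with HISAT to GRCm38, marked amplification duplicates with Picard 1.128 for removal, and used HTSeq to count reads per gene. Whether counting used strand is not given in the sources used here, so overlapping genes are uncertain. The deposited values are whole-number counts per gene, not normalized. A second deposited table of normalized values was not used. The extraction notes speak of younger mice than the week labels, and groups follow the labels. Rows that name no mouse gene (111 rows, 0.0778% of reads) were kept out of library sizes and tests.

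From the counts, one model with a mean per group was fitted over all 33 libraries with edgeR 4.0.16 (R 4.3.3; TMM; quasi-likelihood test), for genes with at least 10 reads in all. The call of a DEG required an adjusted p (Benjamini-Hochberg) below 0.1 together with a change of more than 1.5-fold. The SE was derived from the test statistic. Adjusted p-values are over all genes tested. DESeq2 1.42.0 was an alternative, and the script was tested on simulated data. Where a symbol had more than 1 ID, the more highly expressed ID was used. Counting intervals and floors of 3 reads cover counting error only.

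Genes were named by rule. The rule took Pthlh, Pth1r, Gm50337 and Scd1, the 10 protein-coding genes that rose and the 10 that fell most, with a higher-group mean of at least 5 CPM and no overlap, up to 5 long non-coding RNAs each way, up to 4 DEGs each way per pathway list, the 2 most abundant and every called marker per cell type list, and up to 5 genes each way per difference between effects. Other named genes were chosen after their values were seen. The comparison, its members and the 44 lists were chosen with earlier results of these data known. Some genes of the lists are counted but not reported by name here.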

Additional observations from a re-analysis of the deposited data

Results flagged for a closer look

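Reads on the polyomavirus rows, which hold the PyMT transgene and lie outside the gene comparison, were found in every KO tumor of week 12 and in no gland. They made up 4.74 CPM (325 reads) in tumor 1, 68.8 CPM (3258 reads) in tumor 2 and 34.5 CPM (2483 reads) in tumor 3, and 0 reads in both KO glands. The result is given because the signal stands above the level of the control samples. Tumor 1 is also the lowest tumor in the summed alveolar markers, at 3308 CPM beside 8729 and 8984 CPM, and whether the 2 measures are linked was not tested.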

How the results depend on the processing

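Fitted on the compared libraries alone, edgeR called 0 of 22035 genes (3056 at an unadjusted p under 0.05, smallest adjusted p 0.115), beside 2233, and DESeq2 on all libraries called 2904. Leaving out 1 library gave 1450 to 2871 DEGs, with 1450 without tumor 2 and 1479 without tumor 3. The tumor effect of KO at week 12 differed from that of KO at week 10 in 3 genes by DESeq2 and 5 with no filter on low counts, beside 0, and from that of WT at week 10 in 78 and 98, beside 0, and in 0 to 4 when 1 library was left out. Without gland 1 the log2 fold change turned, so that leaving out 1 library gave values from -3.60 to 1.24 for Oxtr, from -3.19 to 0.034 for Eng and from -3.69 to 4.25 for Hoxc4, and 110 of the 198 named DEGs kept their call, as did 143 without gland 2. All 198 had the same direction in every alternative that kept the 5 libraries. The cause of these changes was not tested. The replicate block gave 1946 DEGs (1033 higher, 913 lower), 1886 of them shared. Same-numbered tumors and glands are not from the same animal, so the pairing is only a number. Their deviations had correlations of -0.557 and -0.173 across 13246 genes. With 2 glands each value recurs with the other sign for the other gland, so these correlations cannot show whether samples are paired.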

Other observations

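The gene groups below were chosen after their values were seen and are given as description. Of 20 genes of iron handling, 8 rose and 1 fell in KO tumors. All of these calls were among the 18 with a group mean of at least 1 CPM, beside 7.43% higher and 6.44% lower of all 13655 such genes. Slc40a1, the iron exporter ferroportin, was at 17.3, 21.7 and 28.5 CPM in tumors and 8.09 and 5.86 CPM in glands. Meltf, melanotransferrin, rose by 2.46 on the log2 scale (SE 0.46, adjusted p = 0.00202 in edgeR), and Heph, the ferroxidase hephaestin, fell by 2.25, while its relative Hephl1 rose. Tfrc, the transferrin receptor, was at 605, 518 and 469 CPM in tumors and 481 and 707 CPM in glands, which overlapped. Among 380 solute carriers 34 rose (8.95%) and 21 fell (5.53%). Of the 230 with a group mean of at least 1 CPM, 14.8% rose and 8.26% fell, beside 7.43% and 6.44% of all 13655 such genes. Slc6a14, an amino acid transporter, was at 4.68, 9.84 and 7.76 CPM in tumors and 0.222 and 0.591 CPM in glands, and Slc28a3, a nucleoside transporter, was at 56.3, 54.7 and 64.1 CPM and at 11.5 and 13.9 CPM.

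Of 25 calcium channel subunits 9 fell and none rose. Only 9 of the 25 had a group mean of at least 1 CPM, and 6 of these fell, beside 6.44% of all 13655 such genes. Cacna1c, the pore of the L-type channel of smooth muscle, was at 1.08, 2.30 and 4.41 CPM in tumors and 47.7 and 6.80 CPM in glands. Of 7 caveolar genes 4 fell, and of the 6 with a group mean of at least 1 CPM 3 fell. Cavin1, a coat protein of caveolae, was at 49.5, 45.1 and 43.6 CPM in tumors and 358 and 201 CPM in glands (log2 -2.60, SE 0.26, adjusted p = 1.43e-05 in edgeR). Foxi1, a transcription factor of ionocytes, was at 1.15, 12.7 and 14.7 CPM in tumors and 0.249 and 0.394 CPM in glands, and Atp6v1b1, a proton pump subunit, rose by 4.37 on the log2 scale, while Ascl3 did not pass (adjusted p = 0.74). Cyp24a1, which breaks down active vitamin D, rose by 4.01 and Trpv6, a calcium channel of epithelia, fell by 2.78, with gland 2 (2.91 CPM) within the tumors (1.17, 2.09 and 3.54 CPM).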
